A study of Mus musculus with 6 samples.

Results

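Integrins, selectins, their ligands and the junctional molecules that leukocytes use to hold on to vessel walls, matrix and one another were followed in a mouse leukaemia line exposed to an inhibitor of PU.1. The set was a list of 42 gene symbols, fixed with earlier results of these data known. It comprised 18 integrin alpha chains, 8 integrin beta chains, 4 selectins and ligands, 10 immunoglobulin-like and junctional molecules and 2 cytoplasmic integrin activators. A gene was measured where the array table held a row that named it alone, and the brightest such row over the 6 arrays stood for the gene. This gave 41 measured genes of the 22180 in the table. Itga10 is not analysed here.

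Expression was measured on Affymetrix whole-transcript arrays in PU.1low URE-/- cells, an acute myeloid leukaemia line taken at the leukaemic stage from a URE-/- mouse. The URE is an upstream enhancer of Spi1, the gene of PU.1, and its loss lowers PU.1. All 6 samples therefore carried the URE deletion and came from 1 line. The treated group of 3 received DB2313, described in the labels as a PU.1 inhibitor, at 330 nM for 24 h, and the control group of 3 received an equal volume of water as vehicle. All were grown in M5300 medium with serum and with supernatants of WEHI and BHK cells. The labels call the samples biological replicates without saying whether the cultures were started separately, and the spread behind the p-values may thus be technical.

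An integrin is a pair of 1 alpha and 1 beta chain that spans the membrane. A leukocyte keeps its integrins inactive until talin and kindlin bind the beta chain tail inside the cell, after which the outer part binds matrix proteins or immunoglobulin-like ligands on other cells. Selectins bind sugar-carrying ligands and let a leukocyte roll along the vessel wall before integrins arrest it. The beta chain encoded by Itgb2 (CD18) is the one shared by the leukocyte integrins, and the genes of several of its chains are known targets of PU.1 in myeloid cells.

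DB2313 is described as an inhibitor of PU.1, which is an ETS factor. The letters GAGGAA, a form of the ETS core that PU.1 favours, were therefore searched on both strands in RefSeq promoter windows of GRCm38.p6. These windows run from 250 bases before to 50 bases after the start of a gene. Whether these letters have a part in the response to DB2313 was not tested. Of the 41 measured genes, 24 had a window, and 13 of these 24 (54.2%) held GAGGAA, against 31.3% of the 27025 genes in the whole table and 28.3% of its 32851 windows. The shorter core GGAA, which lies within GAGGAA, was in the windows of 23 of the 24 genes and of 96.5% of all genes. These shares are a description of letters and not of binding. Of the 5 genes that passed the test described further on, Cd44 and F11r had a window. They are shown 5′ to 3′ in the direction of the gene, with that of Itgam, whose protein pairs with that of Itgb2. Capitals mark GAGGAA or, read on the other strand, TTCCTC. The windows are chr2:102901616-102901915 (minus strand) for Cd44, chr1:171437311-171437610 (plus strand) for F11r and chr7:128062390-128062689 (plus strand) for Itgam.
Cd44: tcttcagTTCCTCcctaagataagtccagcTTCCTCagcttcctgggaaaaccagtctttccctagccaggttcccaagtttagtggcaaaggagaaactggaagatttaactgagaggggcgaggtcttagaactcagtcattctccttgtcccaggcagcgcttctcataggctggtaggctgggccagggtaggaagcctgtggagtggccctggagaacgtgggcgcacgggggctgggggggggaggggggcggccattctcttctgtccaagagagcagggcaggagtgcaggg
F11r: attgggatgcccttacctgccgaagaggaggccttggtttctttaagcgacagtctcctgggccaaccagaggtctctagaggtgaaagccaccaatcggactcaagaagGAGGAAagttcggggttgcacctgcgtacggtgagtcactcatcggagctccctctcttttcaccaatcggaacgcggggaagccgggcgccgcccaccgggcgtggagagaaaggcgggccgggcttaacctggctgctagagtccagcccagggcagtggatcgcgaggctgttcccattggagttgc
Itgam: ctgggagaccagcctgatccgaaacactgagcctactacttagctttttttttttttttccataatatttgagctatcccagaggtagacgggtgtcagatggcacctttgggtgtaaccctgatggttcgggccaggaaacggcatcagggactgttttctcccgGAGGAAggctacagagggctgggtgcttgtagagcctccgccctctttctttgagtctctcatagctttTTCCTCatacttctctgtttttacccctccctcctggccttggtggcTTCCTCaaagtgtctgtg
Cd44 held the letters on the other strand, beginning 243 and 220 bases before the start. F11r held them 140 bases before its start, and Itgam 84 bases before it, with TTCCTC 15 bases before and 32 bases after it. Cd44 was lower and F11r higher with the compound, and Itgam did not pass the test. Itga4, Itgax, Itgb5 and Fermt3 were among the genes whose windows held no GAGGAA.

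The 6 arrays were alike in scale, with medians between 4.77 and 4.82 (log2). Correlations between arrays across genes (Pearson's r) lay between 0.996 and 0.9965 within groups and between 0.9943 and 0.9947 across groups. With limma and Benjamini-Hochberg adjustment, 401 of 22180 genes passed an adjusted p of 0.05, of which 226 were higher and 175 lower. The signal on this scale depends on the probes as well as on the transcript, so signals are compared between arrays and not between genes. To mark signals that may hold little more than background, 1390 olfactory and vomeronasal receptor genes served as a reference, and a gene was called dim at or under the 95th percentile of their means, 4.83. By this measure 26 of the 41 genes lay above the reference and 15 were dim. Of 14 myeloid blast markers 13 lay above it, including Mpo, Elane and Kit, and their summed signal was between 14.80 and 14.81 in vehicle and between 14.82 and 14.85 with DB2313 (log2 of the linear sum). The exception was Ptprc, the pan-leukocyte marker CD45, whose single row had 3.32 in vehicle and 3.31 with DB2313. How well the probes of a row work was not measured here, so a dim row does not show that a transcript is absent. The sum is carried by a few bright genes. Of the 14 markers 3 passed (21.4%, beside 1.81% of all genes). Cd33, a sialic acid-binding receptor, fell (log2 difference -1.85, limma adjusted p = 0.00287). Gfi1, a transcriptional repressor of granulocyte precursors, rose (0.54, limma adjusted p = 0.00464), and Spi1 fell. The part of these 3 markers in the adhesion results was not tested. The values of Spi1 were 6.79, 6.88 and 6.95 in vehicle and 6.52, 6.49 and 6.50 with DB2313 (limma adjusted p = 0.0342).

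**Figure D1:**
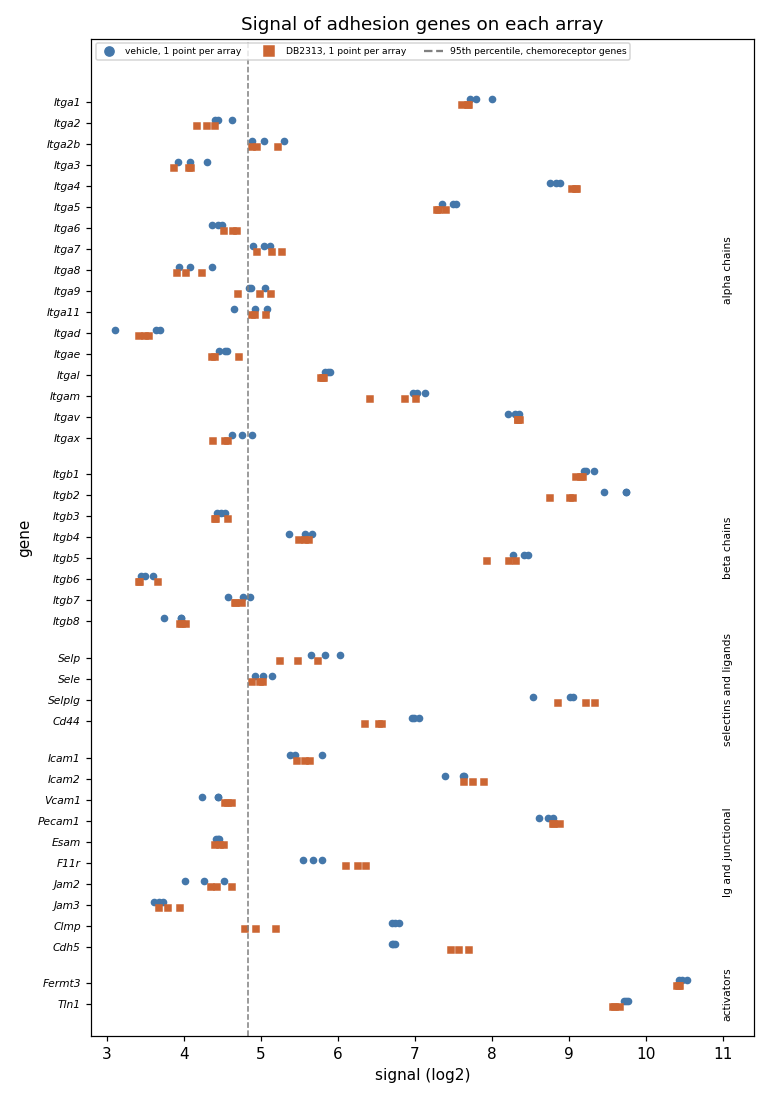
Signal (log2, x axis) of the 41 measured adhesion genes (y axis, grouped by role) on each of the 3 vehicle arrays (circles) and 3 DB2313 arrays (squares). The dashed line is the reference of 4.83 from olfactory and vomeronasal receptor genes, under which 15 genes lie. The groups are apart for 6 genes (14.6%) with DB2313 above and 8 (19.5%) with DB2313 below. Clmp, Cdh5, F11r, Itgb2 and Cd44 are among these. Of all genes, 9.75% lay above and 9.55% below.

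Of the 41 genes, 5 passed the test, a share of 12.2% where 1.81% of all genes did so. The genes were chosen with earlier results of these data known, so the shares given here are descriptions and do not test for an excess. Clmp, Itgb2 and Cd44 fell, against 0.789% of all genes called lower, and Cdh5 and F11r rose, against 1.02% called higher. The other 36 did not pass. The median log2 difference of the 41 genes was -0.017, beside -0.002 for all genes, with 19 above and 22 below 0. Among the 26 genes above the reference the same 5 passed, 19.2%, beside 3.04% of all genes above it. The 3 DB2313 arrays lay entirely above the vehicle arrays for 6 of the genes (14.6%) and entirely below for 8 (19.5%), where 9.75% and 9.55% of all genes did so. The calls rested on few arrays. Clmp and Cdh5 passed with any 1 array left out, whereas Itgb2, Cd44 and F11r each passed in 1 of these 6 settings.

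**Figure D2:**
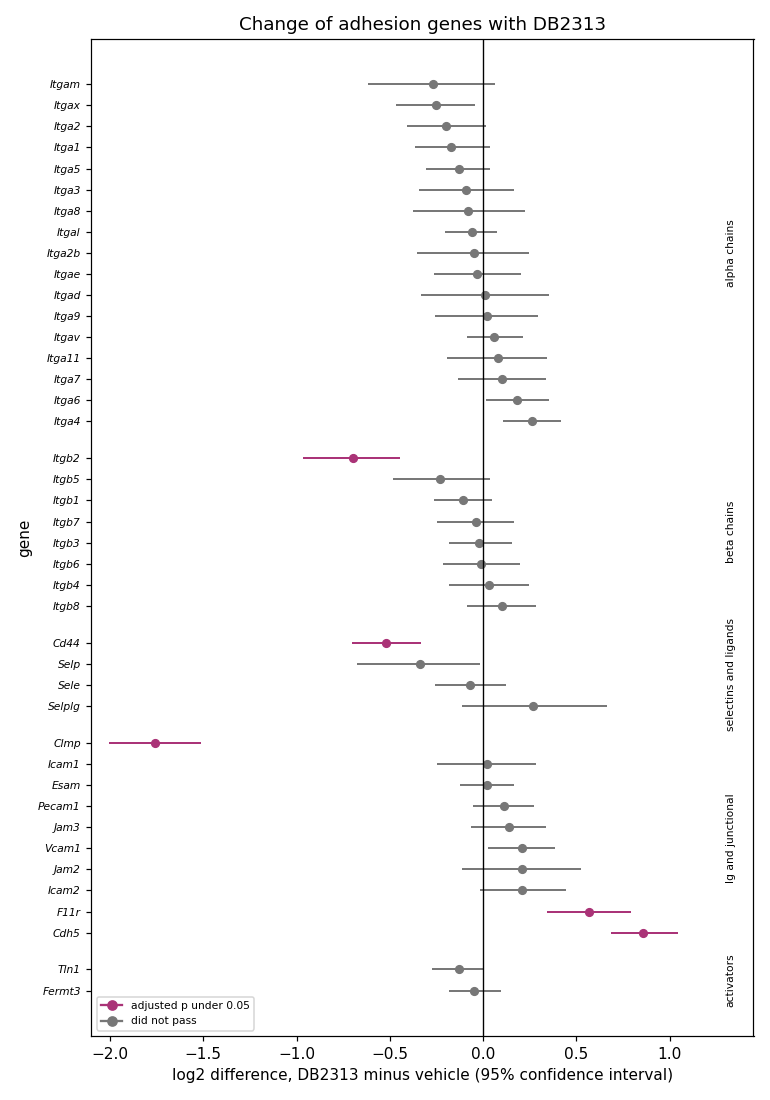
Log2 difference, DB2313 minus vehicle (x axis), with its 95% confidence interval from limma, for the 41 genes (y axis, grouped by role). The 5 genes with an adjusted p under 0.05 are coloured: Clmp, Itgb2 and Cd44 lie below 0, and F11r and Cdh5 above.

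Of the 8 beta chain genes Itgb2 passed (12.5%, beside 1.81% of all genes), and 7 did not. The signal of Itgb2 was 9.46, 9.74 and 9.74 on the vehicle arrays and 8.75, 9.01 and 9.06 on the DB2313 arrays. The groups did not overlap, and the lowest vehicle value stood above the highest treated value. The means were 9.65 ± 0.16 and 8.94 ± 0.17 (SD, n = 3), a 1.63-fold lower signal with DB2313 (log2 difference -0.70, SE 0.112, limma adjusted p = 0.0249). It passed without vehicle replicate 1 (adjusted p = 0.0423) and did not pass without any of the other 5 arrays, with adjusted p up to 0.0966.

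Itgb1, the most widely shared beta chain, had 9.33, 9.23 and 9.20 in vehicle and 9.10, 9.18 and 9.16 with DB2313. The treated arrays lay just below the others, and the log2 difference of -0.11 did not pass (95% interval -0.26 to 0.04, limma adjusted p = 0.535). Itgb7, the partner of the alpha 4 and alpha E chains in gut homing, was dim, with 4.58, 4.77 and 4.86 in vehicle and 4.67, 4.75 and 4.68 with DB2313. Its groups overlapped, and its difference was -0.04 (limma adjusted p = 0.899). Itgb5, which pairs with alpha V to bind vitronectin, had the next largest difference after Itgb2, -0.23 (interval -0.48 to 0.03), and did not pass (limma adjusted p = 0.448). The remaining beta chain genes, Itgb3, Itgb4, Itgb6 and Itgb8, had differences between -0.02 and 0.10, and 3 of them, all but Itgb4, were dim.

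None of the 17 measured alpha chain genes passed in limma, where 3 had an unadjusted p under 0.05 (Itga4, Itgax and Itga6), a level reached by 12.7% of all genes. Their differences ran from -0.27 to 0.26, with a median of -0.053, 7 above and 10 below 0. Those that pair with the Itgb2 product come first. Itgal encodes the alpha chain of LFA-1, the receptor for ICAM proteins, and had 5.87, 5.90 and 5.83 in vehicle and 5.82, 5.81 and 5.78 with DB2313. The treated arrays lay below the vehicle arrays by a small margin, with a difference of -0.06 (interval -0.20 to 0.07, limma adjusted p = 0.723). Itgam encodes the alpha chain of Mac-1 (CD11b), which binds complement-coated particles and fibrinogen. Its signal was 6.98, 7.13 and 7.03 in vehicle and 6.42, 6.87 and 7.02 with DB2313. Here 1 treated array, replicate 1, was well below the rest while replicate 3 reached the vehicle range, and the difference of -0.27 did not pass (interval -0.61 to 0.06, limma adjusted p = 0.501). Itgax, encoding CD11c, was dim, at 4.75, 4.88 and 4.62 against 4.54, 4.38 and 4.57, with the treated arrays lower and a difference of -0.25 (limma adjusted p = 0.288). Itgad, encoding CD11d, was dim as well, with 3.69, 3.11 and 3.64 in vehicle and 3.42, 3.49 and 3.55 with DB2313, and its groups overlapped (difference 0.01, limma adjusted p = 0.986).

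Whether Itgb2 moved more than these partners was examined within each array, as the log2 ratio of Itgb2 to the alpha chain. The ratio to Itgal fell by 0.64, that to Itgam by 0.43, that to Itgax by 0.45 and that to Itgad by 0.71. In all 4 pairs the DB2313 arrays lay below every vehicle array. The exact 2-sided permutation p was 0.10 for each pair, and 0.10 after adjustment over the 4 pairs, which is the smallest p that 3 against 3 arrays allow. The 4 ratios share the Itgb2 values and are not independent, and those to Itgax and Itgad rest on dim genes. Itgb2 had already been called lower and none of the 4 partners was called, so the falling ratios are not separate support.

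**Figure D3:**
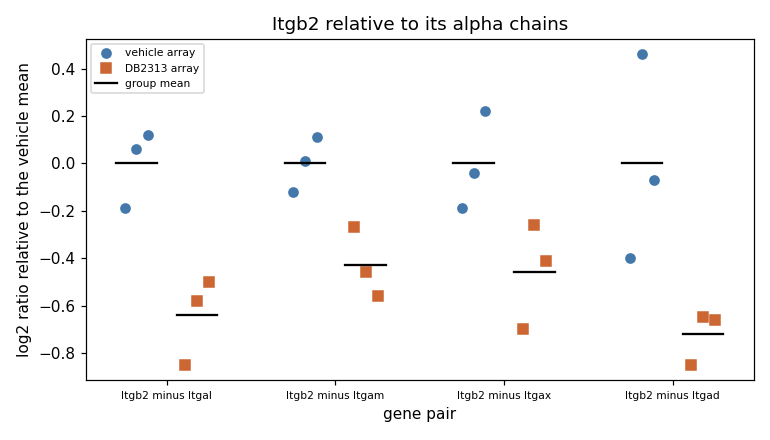
Log2 ratio of Itgb2 to each of the alpha chains Itgal, Itgam, Itgax and Itgad on every array (x axis, pairs; y axis, relative to the vehicle mean of that pair). Circles are vehicle arrays, squares are DB2313 arrays and lines are group means; the treated means lie between 0.43 and 0.71 lower.

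Of the other alpha chains, Itga4 stood closest to the threshold. It encodes the alpha chain of VLA-4, with which progenitors and leukaemic cells bind VCAM-1 and fibronectin. Its signal was 8.89, 8.76 and 8.83 in vehicle and 9.04, 9.11 and 9.10 with DB2313, so that every treated array was above every vehicle array. The log2 difference was 0.26 (interval 0.11 to 0.41, limma adjusted p = 0.127). It passed with a trended and robust prior (adjusted p = 0.00938), after 32 was added to the linear signal (0.0226) and when only genes at or above the median signal were tested (0.0309), and in none of the settings with 1 array left out. Itgav, a vitronectin and fibronectin receptor chain, had 8.28 ± 0.07 in vehicle and 8.35 ± 0.01 with DB2313 (SD, n = 3, limma adjusted p = 0.752). Itga1, a collagen receptor chain, and Itga5, the fibronectin receptor chain, had differences of -0.17 and -0.13 and did not pass. Of the 17 alpha chain genes 7 were dim, namely Itga2, Itga3, Itga6, Itga8, Itgad, Itgae and Itgax, and Itga2b, Itga7, Itga9 and Itga11 had means between 4.92 and 5.07, just above the reference.

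The cytoplasmic activators did not pass. Tln1, encoding talin, had 9.75, 9.77 and 9.72 in vehicle and 9.66, 9.58 and 9.60 with DB2313, all treated arrays being lower (difference -0.13, interval -0.27 to 0.00, limma adjusted p = 0.415). Fermt3, encoding the kindlin of blood cells, had 10.43, 10.53 and 10.47 against 10.41, 10.43 and 10.45. Its groups overlapped at a difference of -0.05 (interval -0.18 to 0.09, limma adjusted p = 0.812).

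Among the 4 selectins and ligands, Cd44 fell (25%, beside 1.81% of all genes called). CD44 is the main receptor for hyaluronan and, suitably glycosylated, a selectin ligand on progenitors. Its signal was 6.99, 7.05 and 6.96 in vehicle and 6.35, 6.57 and 6.53 with DB2313. The vehicle arrays lay within a narrow band and the groups were well apart, a 1.43-fold lower signal (log2 difference -0.52, SE 0.077, limma adjusted p = 0.0189). It passed without DB2313 replicate 2 (adjusted p = 0.0462) and in none of the other 5 settings with 1 array left out, where the adjusted p went up to 0.0805. Selplg, encoding PSGL-1, the main ligand of P-selectin on leukocytes, had 8.54, 9.05 and 9.01 in vehicle and 8.86, 9.34 and 9.22 with DB2313. Its groups overlapped, as replicate 1 was the lowest array in each (difference 0.27, interval -0.11 to 0.66, limma adjusted p = 0.565). The other row of Selplg had a difference of 0.14. Selp, encoding P-selectin of platelets and endothelium, had a difference of -0.34 with overlapping groups (limma adjusted p = 0.371), and Sele, encoding E-selectin of activated endothelium, -0.07 (limma adjusted p = 0.795).

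The immunoglobulin-like and junctional molecules held 3 of the 5 calls, in both directions (30% of the 10 genes, beside 1.81% of all genes). Clmp was lower, and the other 9 of the 10 genes had a difference above 0, as had 10899 of all 22180 genes. Among these 9, Vcam1, Esam, Jam2 and Jam3 were dim, and Icam1 and Esam were at 0.02. Clmp, which encodes a tight junction-associated relative of the coxsackievirus and adenovirus receptor, had the strongest fall, from 6.70, 6.74 and 6.80 in vehicle to 4.94, 4.80 and 5.20 with DB2313. The vehicle arrays lay close together, and the treated arrays came down to about the reference for dim genes. The signal was 3.39-fold lower (log2 difference -1.76, SE 0.103, limma adjusted p = 0.000519). After 32 was added to the linear signal, which damps dim genes, the difference was -1.13. The second row of Clmp did not follow: it had 5.70, 5.50 and 5.67 in vehicle and 5.65, 5.52 and 5.39 with DB2313, with overlapping groups and a difference of -0.11 (limma adjusted p = 0.708 over all rows with 1 symbol). The mean of both rows gave -0.93 (limma adjusted p = 0.00111). The kept row was the brighter of the 2 in vehicle (6.74 against 5.63) and the dimmer with DB2313 (4.98 against 5.52). Its choice as the brightest over the 6 arrays thus rested on the vehicle arrays. The fall of Clmp holds for 1 of its 2 rows.

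Cdh5, the cadherin of endothelial junctions (VE-cadherin), rose most. Its signal was 6.70, 6.72 and 6.74 in vehicle and 7.47, 7.57 and 7.71 with DB2313. The treated arrays stood clear of the tightly grouped vehicle arrays, a 1.82-fold higher signal (log2 difference 0.86, SE 0.074, limma adjusted p = 0.00222). With 1 array left out the adjusted p lay between 0.00748 and 0.0197. Of 14 other endothelial markers none passed in limma, 2 had an unadjusted p under 0.05 (12.7% of all genes did) and 10 were dim, the VEGF receptor gene Kdr among them at 4.77 and 4.76. The 4 above the reference were Flt1, Egfl7, Mmrn2 and Sox17. Flt1, another VEGF receptor, had 9.06 in vehicle and 8.93 with DB2313, all treated arrays being lower. Egfl7 and the dim Erg had differences of 0.17 and 0.18, with every treated array above every vehicle array. The dim Tie1 went the other way, with a difference of -0.27 and every treated array below every vehicle array. Of the 14 markers, 2 (14.3%) lay entirely above and 2 (14.3%) entirely below, where 9.75% and 9.55% of all genes did so. The summed signal of the 14 was between 9.74 and 9.75 in vehicle and between 9.63 and 9.72 with DB2313, but Flt1 made up 59.5% to 63.9% of it. Without Flt1 it was between 8.27 and 8.40 in vehicle and between 8.32 and 8.40 with DB2313, and the groups overlapped. The part of such markers in the rise of Cdh5 was not tested.

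F11r, encoding the junctional adhesion molecule JAM-A, which binds the LFA-1 integrin and is also found on leukocytes and platelets, had 5.55, 5.79 and 5.68 in vehicle and 6.10, 6.37 and 6.26 with DB2313. Every treated array was above every vehicle array, a 1.49-fold higher signal (log2 difference 0.57, SE 0.093, limma adjusted p = 0.0286). It passed without DB2313 replicate 1 (adjusted p = 0.0475) and in none of the other 5 settings with 1 array left out, with adjusted p up to 0.118. Its relatives Jam2 and Jam3 were dim, with differences of 0.21 and 0.14 that did not pass. Of 9 measured megakaryocyte and platelet markers 6 were dim, and 8 had a difference below 0, as had 11281 of all 22180 genes. None of the 9 passed in limma, with 2 at an unadjusted p under 0.05, beside 12.7% of all genes. Their summed signal was between 7.79 and 7.95 in vehicle and between 7.65 and 7.82 with DB2313. The part of such markers in the rise of F11r was not tested.

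**Figure D4:**
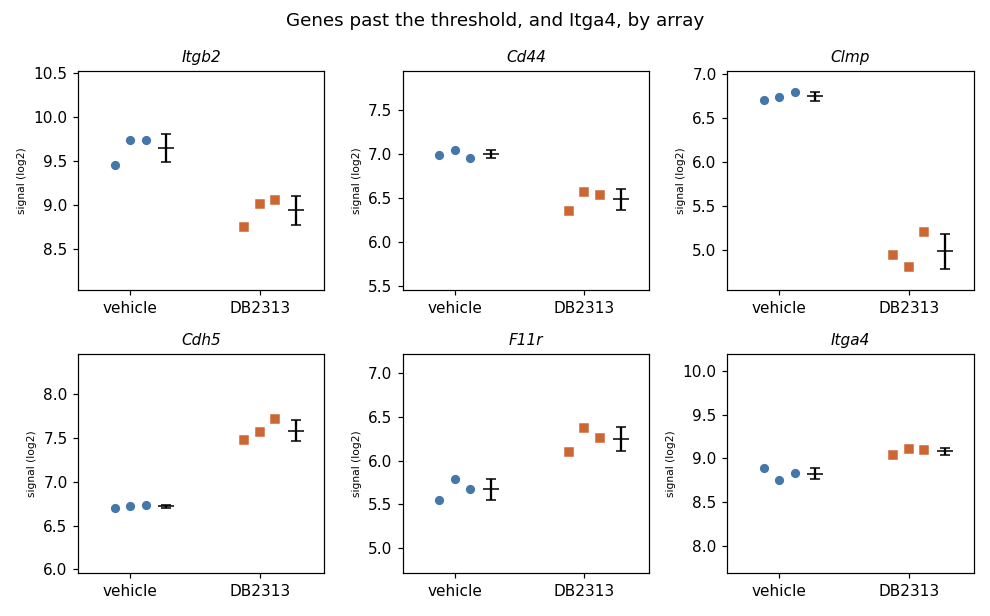
Signal (log2, y axis) of the 5 genes past the threshold and of Itga4, which did not pass, on the vehicle arrays (circles) and the DB2313 arrays (squares), with the group mean and SD (bars, n = 3). The axes span the same range in all panels; Clmp goes from 6.74 to 4.98, the widest step, and Itga4 from 8.83 to 9.08.

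Apart from F11r and Clmp, the immunoglobulin-like molecules, several vascular ligands of leukocyte integrins among them, did not pass. Pecam1, encoding CD31, had 8.72 ± 0.09 in vehicle and 8.83 ± 0.05 with DB2313 (SD, n = 3, limma adjusted p = 0.565). Icam2, a ligand of LFA-1, had a difference of 0.21 (interval -0.01 to 0.44, limma adjusted p = 0.423). Icam1, the inducible ligand of LFA-1 and Mac-1, had 0.02, and its groups overlapped. Vcam1, the ligand of VLA-4, was dim at 4.38 and 4.58, with a difference of 0.21 (limma adjusted p = 0.319), and Esam, an endothelial and platelet molecule, was dim with a difference of 0.02.

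Genes around these receptors were taken from 5 further lists, also chosen with earlier results of these data known. Of their measured genes 10.7%, 7.14%, 5.56%, 8.11% and 7.14% passed, in the order given below, beside 1.81% of all genes. Among 28 measured genes of integrin activation and linkage to actin, Lims1 and Flna fell, Cyth1 rose and 25 did not pass, with a median difference of -0.016. Lims1 encodes PINCH-1, an adaptor of the integrin-linked kinase complex, and went from 9.31 ± 0.06 to 8.83 ± 0.09 (SD, n = 3, limma adjusted p = 0.0206). Flna encodes filamin A, an actin crosslinker that binds integrin beta tails, and had a log2 difference of -0.40 (limma adjusted p = 0.0203). Cyth1 encodes cytohesin-1, an exchange factor that binds the tail of the Itgb2 product, and rose by 0.51 (limma adjusted p = 0.0355). None of these 3 genes passed on 5 arrays, whichever was removed, with adjusted p up to 0.0863 for Lims1, 0.0919 for Flna and 0.125 for Cyth1.

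Of 28 measured kinases and effectors downstream of integrins, Arhgef6, a Rac exchange factor, fell by 0.52 on the log2 scale and Elmo1, which acts with DOCK proteins on Rac, rose by 0.34, while 26 did not pass (median difference 0.005). Their limma adjusted p were 0.0434 and 0.0455, and neither passed on 5 arrays, whichever was removed (up to 0.154 and 0.172). In 18 genes of selectin ligand synthesis and shedding, Adam17, a protease that sheds L-selectin, rose by 0.39 (limma adjusted p = 0.0364, up to 0.142 with 1 array left out), and the other 17, Fut7 and Gcnt1 among them, did not pass (median 0.034).

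The other adhesion receptors and ligands included the largest rises of the 5 lists. Cd24a, a glycosylated surface molecule that P-selectin can bind, had 7.72, 7.76 and 7.51 in vehicle and 8.50, 8.53 and 8.69 with DB2313, a log2 difference of 0.91 (limma adjusted p = 0.00405). Alcam, an immunoglobulin-like adhesion molecule, had 8.95, 8.90 and 8.73 against 9.56, 9.49 and 9.46, a difference of 0.64 (limma adjusted p = 0.00782). In both genes the groups were well separated, and both passed with any 1 array left out. Cd53, a leukocyte tetraspanin, fell by 0.49 (limma adjusted p = 0.0113) and did not pass in 4 of these 6 settings. The remaining 34 of 37 genes did not pass (median -0.001).

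Matrix ligands of integrins gave the strongest falls of these lists. Fn1, encoding fibronectin, the ligand of the alpha 4 and alpha 5 integrins, had 7.65, 7.43 and 7.76 in vehicle and 6.40, 6.14 and 6.49 with DB2313, a log2 difference of -1.27 (limma adjusted p = 0.003). Thbs1, encoding thrombospondin-1, which binds integrins and CD47, had 12.19, 12.09 and 12.16 against 11.27, 11.26 and 11.29 (difference -0.87, limma adjusted p = 0.00084). Both were lower on every treated array and passed with any 1 array left out. The other 26 of 28 did not pass, and 16 of the 28, the fibrinogen genes and several laminin genes among them, were dim. Of 10 fibroblast and stromal markers none passed in limma, with 3 at an unadjusted p under 0.05 (12.7% of all genes), and 5 were above the reference. Their summed signal was between 8.70 and 8.84 in vehicle and between 8.59 and 8.71 with DB2313, of which Acta2 made up 41.3% to 47.9%. Their part in the fall of Fn1 and Thbs1 was not tested.

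**Figure D5:**
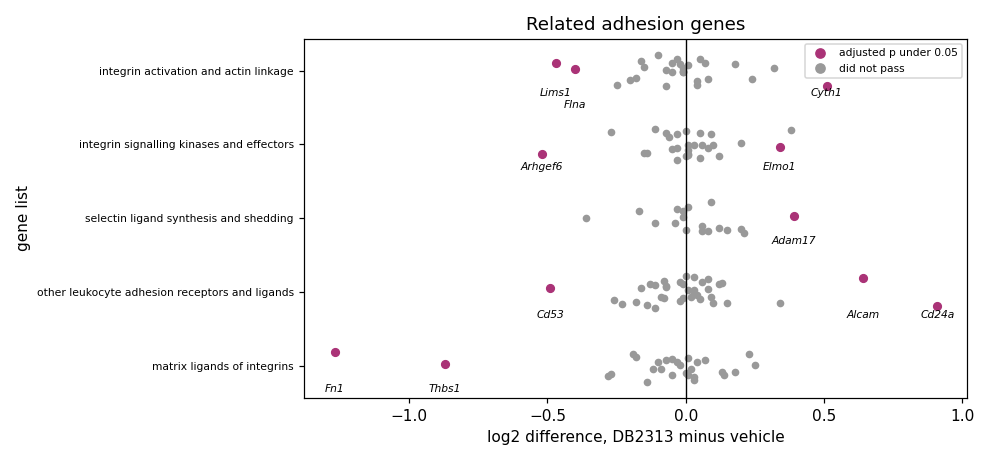
Log2 difference, DB2313 minus vehicle (x axis), of every measured gene in the 5 related lists (y axis; points are spread vertically for legibility). Coloured, named points had an adjusted p under 0.05 in limma: Fn1 at -1.27 and Cd24a at 0.91 lie farthest from 0.

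Markers of lymphoid and mast cells, which share several of these adhesion genes, were mostly dim. All 10 measured T and natural killer cell markers were dim. Of 9 mast cell and basophil markers 8 were dim; the exception, Mcpt8, had 7.72 ± 0.03 in vehicle and 8.00 ± 0.04 with DB2313 (SD, n = 3) and did not pass (limma adjusted p = 0.0745). The summed signal of that list was between 8.17 and 8.23 in vehicle and between 8.38 and 8.44 with DB2313, mostly that of Mcpt8 (72.1% to 75.9%), and its part in the results was not tested. In RNA of a whole culture, fewer cells of a type and less RNA per cell cannot be told apart.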

How the data were processed

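Arrays were processed in Affymetrix Expression Console, per the submitters' processing notes. How background was corrected and probes were summarised is not given in the sources used here. For each probe set and array the authors deposited 1 log2 signal, judged to be on that scale from its range. Of 41345 rows, 23521 named 1 gene and 1814 several in the platform annotation, and 16010 had no entry. Rows with 1 gene were kept, the brightest of a gene over the 6 arrays, which left 22180 genes. Precision is limited by the number of arrays.

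DB2313 was compared with vehicle in limma 3.58.1 (R 4.3.3; lmFit, eBayes, 2-sided, no minimum fold) over all genes, with Benjamini-Hochberg adjustment at 0.05 and intervals at 95%. The code was tested on simulated data. Described in full are the genes past the threshold and 10 receptors, ligands and activators; the related lists give up to 4 genes each past the threshold. Members and lists were chosen with earlier results of these data known. Promoter windows came from RefSeq (GRCm38.p6). Alternatives were the replicate number as a block, each array left out, a trended and robust prior, the mean of rows, 32 added to the linear signal, a filter at the median signal, median centring and quantile normalization. Protein sequences were not used here.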

Additional observations from a re-analysis of the deposited data

How the results depend on the processing

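The 401 genes past the threshold became 799 with a filter at the median signal, 830 with an offset of 32, 920 with a trended and robust prior and 136 to 187 with 1 array left out. The 5 adhesion genes became 2 to 3 with 1 array left out. The median difference of the set, -0.017, was -0.063 with the filter and -0.039 to 0.024 with 1 array left out. With 1 array left out, no gene passed in limma in the lists of integrin activation (3 otherwise, with 5 to 8 of 28 at an unadjusted p under 0.05), of integrin signalling (2 otherwise, 4 to 5 of 28 unadjusted) and of selectin ligand synthesis (1 otherwise, 3 to 5 of 18 unadjusted), where 10.9% to 11.9% of all genes had such a p. The last list had 2 and the list of other receptors had 5, in place of 1 and 3, under the filter, the offset and the trended prior alike. Residual correlations of same-numbered arrays were low (0.0226, 0.0781 and 0.00828), and 4 of 6 arrays were closest to their own number. With 3 arrays in each group these values cannot decide whether the replicate number is a pairing. As a block in limma, the replicate number gave 190 genes and 4 adhesion genes (Cd44 was lost, adjusted p = 0.0591). It gave 0 in each of these 3 lists (6, 5 and 4 at an unadjusted p under 0.05, beside 12.5% of all genes). Quantile normalization and median centring left the 5 adhesion genes called. The Itgb2 ratios kept their direction under quantile normalization, the offset and the mean of rows. Signals near the reference of 4.83 can understate a change.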
